A study of Mus musculus with 6 samples.

Results

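The matrix metalloproteinases (MMPs), the ADAMTS proteases and the tissue inhibitors of metalloproteinases (TIMPs) were followed in the calvaria (bones of the skull roof) of newborn mice. Members were all genes of the deposited table with a symbol of these families, which gave 46 of 23358 genes: 23 Mmp, 19 Adamts and 4 Timp genes. RNA-seq was made from 6 libraries of mice aged 2 to 3 days. Of these, 3 were labelled Ezh2_cKO-Osx, a conditional knockout (cKO) of Ezh2, the histone methyltransferase of Polycomb repressive complex PRC2. The other 3 were labelled wild type (WT, Ezh2_WT-Osx). The Osx in both labels is the former name of Sp7, which encodes a factor needed for osteoblast formation. Strain, sex, the deleted part of Ezh2 and whether the WT mice carry a Cre transgene are not given in the labels. Libraries are named by group and label number, and values are listed throughout in the order 14, 27 and 29 for WT and 8, 10 and 37 for cKO. All bones were digested for 20 minutes in collagenase type II at 2 mg/ml with 0.005% trypsin and then washed and frozen, per the design text. Nothing in the labels ties the libraries to separate animals, and p-values therefore measure the spread between these libraries, which may be partly technical.

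MMPs are zinc endopeptidases that are made as inactive precursors and, once activated, cut collagens, proteoglycans and other proteins of the extracellular matrix. ADAMTS proteases share the zinc-binding catalytic fold but carry thrombospondin repeats, and different members cut cartilage and vascular proteoglycans, trim procollagens or process other secreted proteins. TIMPs bind the active site and inhibit MMPs and, for Timp3 in particular, several ADAMTS proteases. In growing bone, osteoblasts, hypertrophic chondrocytes and osteoclasts use these enzymes to remodel mineralised matrix and cartilage.

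The gene counts of the libraries summed to between 60449016 and 95439578. Ezh2 itself, at 20.7, 21.7 and 20.4 CPM (a gene's read count scaled to the TMM-adjusted library total) in WT and 19.2, 20.6 and 19.8 in cKO, did not pass the test (edgeR adjusted p = 0.507). Its count covers the whole gene and does not check the labels, so cKO means the libraries labelled so. Markers of osteoblasts were abundant in all libraries (13 genes, summed 132426 to 179884 CPM in WT and 99039 to 134823 in cKO). Most of that sum was the collagens Col1a1 (means 81440 CPM in WT and 57138 in cKO) and Col1a2 (61619 and 51768). Of these 13, Sp7 itself was lower in cKO (log2 -0.37 ± 0.09 SE, edgeR adjusted p = 0.0211), Mepe, a matrix protein of osteocytes, was higher (0.40 ± 0.10, edgeR adjusted p = 0.0250), and 11 did not pass. Markers of chondrocytes varied widely inside both groups, from 3617 to 10517 summed CPM in WT and from 1863 to 8198 in cKO. In bulk RNA, fewer cells of a type and less RNA per cell cannot be told apart.

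The level of the members per gene length spanned more than 4 orders of size. RPKM, the authors' reads per kilobase scaled to library size, was above 100 for 6 members, between 10 and 100 for 10, between 1 and 10 for 12, between 0.1 and 1 for 6 and below 0.1 for 12. The most abundant was Mmp2, a gelatinase made by mesenchymal cells, with 402, 399.6 and 352 RPKM in WT and 413, 451 and 383 in cKO. It was followed in mean RPKM by the collagenase Mmp13 (337), the gelatinase Mmp9 (274), the membrane-bound Mmp14 (270.4), Timp2 (231) and Timp1 (151). Neighbours in this order overlap: the Mmp9 and Mmp14 libraries span 185 to 422 and 244 to 302 RPKM. Mmp2, Mmp9, Mmp13 and Mmp14 together made up 93.3% to 95.1% of all Mmp RPKM in every library. The most abundant Adamts genes were Adamts2 (49.4 RPKM), a procollagen N-proteinase, and Adamts10 (34.1 RPKM), a protein of the fibrillin network.

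**Figure D1:**
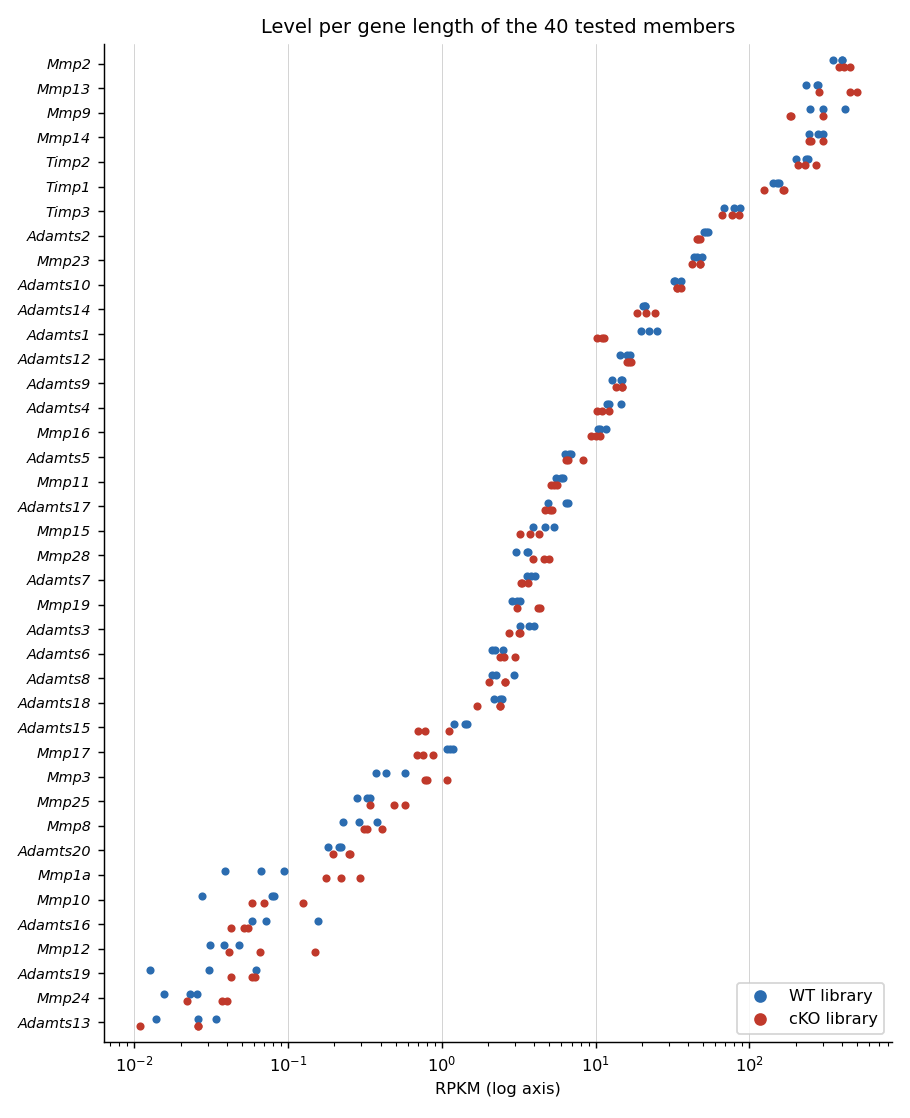
RPKM of the 40 tested members in each library (log axis; WT in blue, cKO in red), ordered by the mean over the 6 libraries. Levels run from the gelatinase Mmp2 at about 352 to 451 down to Adamts13 at 0.0108 to 0.0342; for most members the blue and red points overlap.

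The comparison asks which of these genes differ in level between the calvaria labelled cKO and WT. Of the 46 members, 40 had counts high enough to test, and of these 3 were higher in cKO, 3 were lower and 34 did not pass (edgeR quasi-likelihood test, Benjamini-Hochberg adjusted p under 0.05 over all genes tested). The 6 calls are 15% of the members tested, against 12.4% of all 16089 genes tested, of which 5.96% were higher and 6.45% lower, so as a set the members were called about as often as other genes. Upper-quartile scaling moved the share of higher calls over all genes from 48% to 60.9%, and an offset for gene length moved it to 33.9%. The median log2 fold change, cKO over WT throughout, was 0.01 for the members and 0.01 for all genes. The WT and cKO libraries did not overlap in 10 members, or 25%, against 34.6% of all genes tested. By family, 3 Mmp genes rose and 1 fell of 18 tested (median 0.26), 2 Adamts genes fell and none rose of 19 (median -0.13), and none of the 3 Timp genes tested passed (0 at an unadjusted p under 0.05). Of the Mmp genes tested below 1 RPKM, Mmp3, Mmp25, Mmp8, Mmp1a, Mmp10, Mmp12 and Mmp24 were fitted above 0 and Mmp17 below. Of those above 1 RPKM, Mmp2, Mmp13, Mmp19 and Mmp28 were fitted above 0 and Mmp9, Mmp11, Mmp14, Mmp15, Mmp16 and Mmp23 below. The Mmp median therefore rests largely on genes at a low level. The members not tested were Mmp1b, Mmp7, Mmp20, Mmp21, Mmp27 and Timp4, none with more than 14 counts in any library.

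**Figure D2:**
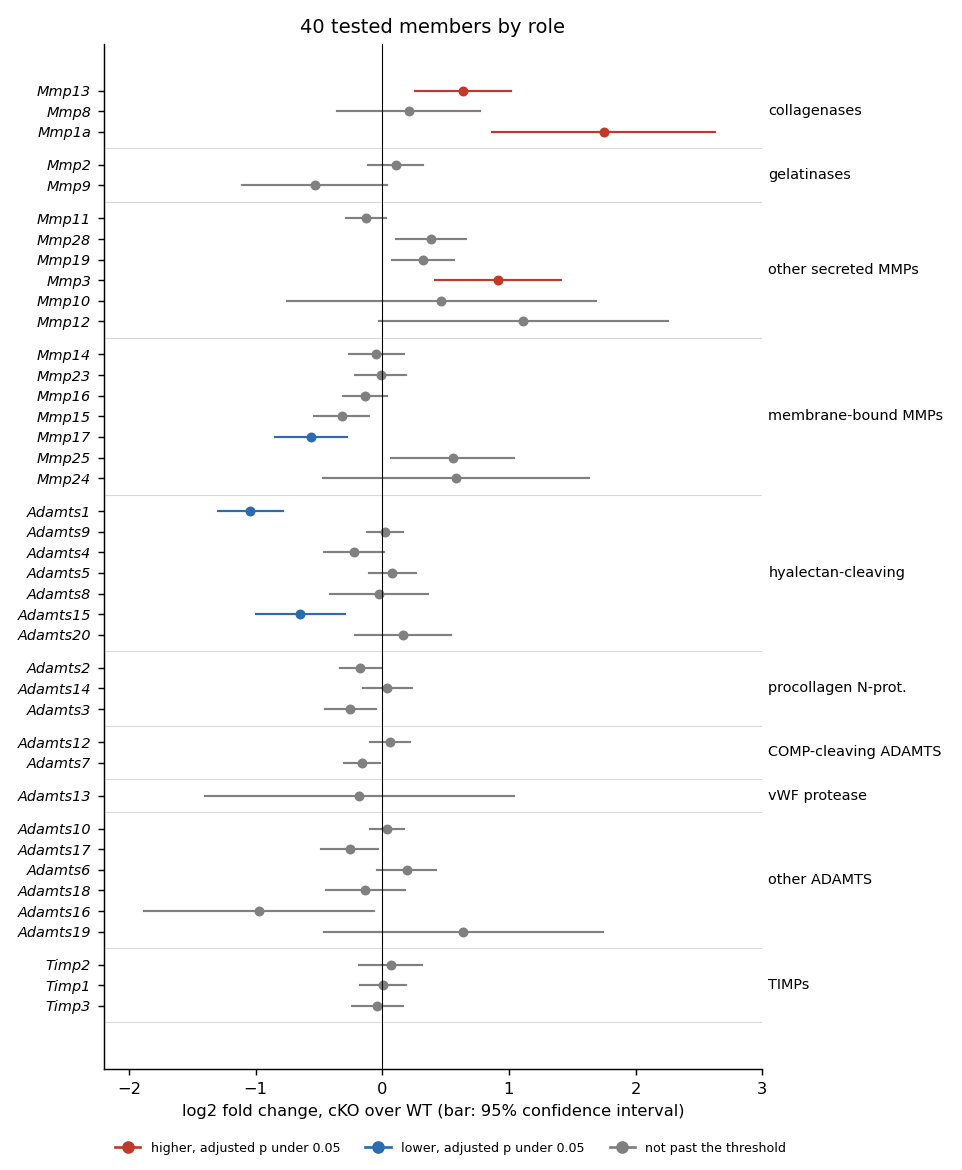
Log2 fold change (cKO over WT) of the 40 tested members with the 95% confidence interval of the edgeR fit, grouped by role and, within a role, by level. Red and blue mark the 3 higher and 3 lower members; the 3 Timp genes lie within 0.07 of 0, and Adamts1 at -1.04 is the lowest.

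**Figure D3:**
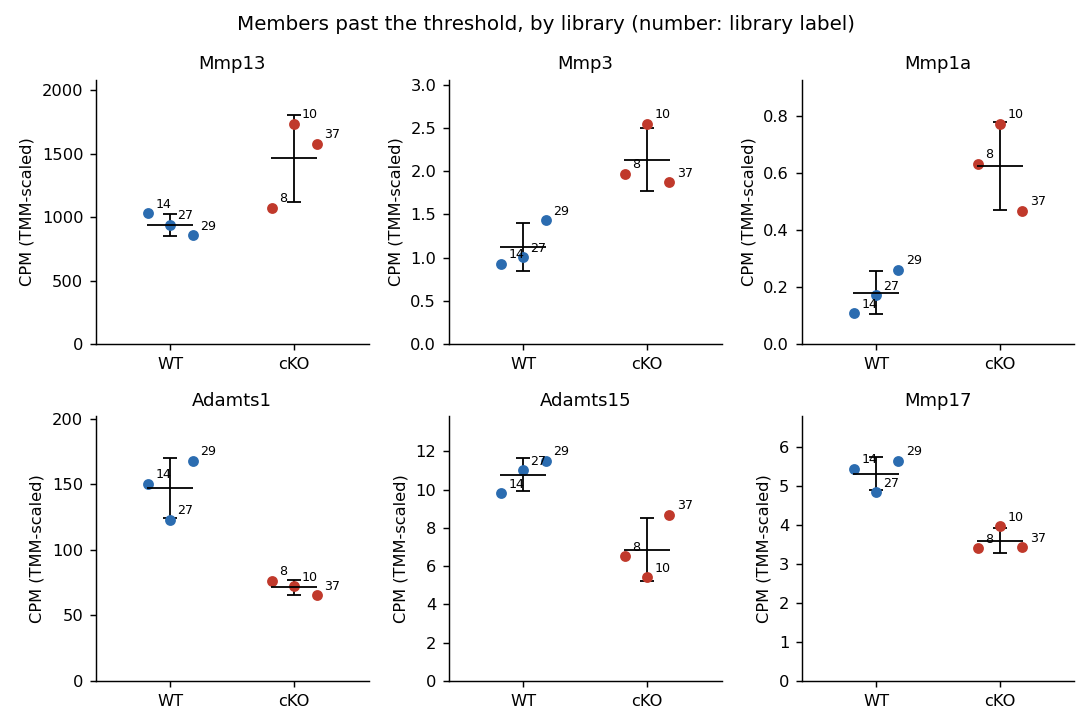
TMM-scaled CPM of the 6 members past the threshold in each library (points, numbered by library), and the mean ± SD of the group (3 libraries each). No panel shows overlap between WT and cKO; as a ratio the gap is narrowest in Mmp13, between WT 14 at 1028 and cKO 8 at 1075.

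All 3 members that rose are secreted MMPs that lie together in a row of 10 Mmp genes on mouse chromosome 9 (mm10, 7272514 to 7699416, 427 kb, with no other gene of the table between them). Mmp13 (7272514 to 7283333, plus strand), the main collagenase of rodent bone, stood at 1028, 939 and 856 CPM in WT and at 1075, 1734 and 1578 in cKO. The cKO 10 and cKO 37 libraries were clearly above WT, whereas cKO 8 was only just above WT 14. The means were 941 ± 86.4 and 1462 ± 344 CPM (SD, n = 3 per group), a 1.55-fold difference (log2 0.64 ± 0.17 SE, 95% confidence interval 0.25 to 1.02, edgeR adjusted p = 0.0423). The call was lost without WT 14, WT 27, WT 29, cKO 10 or cKO 37 (edgeR adjusted p = 0.0617 to 0.167), with no filter on low counts (0.0652), and under the length offset alone (0.0611) or joined with GC (0.121).

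Mmp3 (chromosome 9, 7445822 to 7455974, plus strand) is stromelysin 1, which cuts proteoglycans and activates other MMPs. It stood at 0.929, 1.002 and 1.44 CPM in WT and at 1.97, 2.55 and 1.87 in cKO, so every cKO library was above every WT library at a low level. The difference was 1.88-fold (log2 0.91 ± 0.23 SE, edgeR adjusted p = 0.0263). Mmp1a (chromosome 9, 7464141 to 7476869, plus strand), a rodent interstitial collagenase, had 8, 12 and 24 counts in WT and 38, 48 and 36 in cKO. In CPM these are 0.109, 0.172 and 0.261 against 0.634, 0.774 and 0.468. The 3.36-fold difference rests on few reads (log2 1.75 ± 0.40 SE, 95% confidence interval 0.87 to 2.63, edgeR adjusted p = 0.0193). All deposited counts were even, so Mmp1a may rest on fewer separate RNA fragments than the counts show. Mmp1b, its close copy in the same row, had at most 8 counts in a library, and reads that fit both genes could have been divided or lost in counting, so the Mmp1a value is uncertain. Mmp3 and Mmp1a were each lost without WT 14, WT 27, cKO 8 or cKO 10 (edgeR adjusted p = 0.0704 to 0.0833 for Mmp3 and 0.0594 to 0.0715 for Mmp1a).

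Of the 6 tested genes of the row, the others also had fitted values above 0, but none passed. Mmp12, the macrophage elastase, was fitted at 1.11 ± 0.52, with 0.191, 0.143 and 0.239 CPM in WT and 0.768, 0.193 and 0.312 in cKO, so the groups overlap and 1 library stands out (edgeR adjusted p = 0.182). Mmp10, stromelysin 2, was at 0.47 ± 0.56, and the neutrophil collagenase Mmp8 at 0.21 ± 0.26 (edgeR adjusted p = 0.621 and 0.639). Neutrophil markers were scarce in both groups, at 6.53 to 8.20 summed CPM in WT and 5.38 to 8.87 in cKO over 10 genes. Most of that sum was Cxcr2, with a mean of 5.21 CPM in WT and 5.22 in cKO. Camp, Elane and Lcn2 were at 0 in at least 1 library. The row of Mmp genes was singled out after the values of its genes were seen.

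The sequence just before the start of these genes is shown because several of them hold a short element that is bound by AP-1, the dimer of Fos and Jun proteins, and that was first studied in collagenase and stromelysin promoters. The windows are the 120 bases before the RefSeq start (GRCm38.p6, the assembly also called mm10), 5′ to 3′ on the strand of the gene; Mmp8, a gene of the row without the element, and Adamts1, which fell, are given for comparison. Capitals mark an AP-1 element (TGAGTCA, or TGACTCA on the other strand) and the letters of a TATA box (TATAAA, read on the gene strand). In Mmp13 they also mark a RUNX element (TGTGGT, here as ACCACA on the other strand). The coordinates are chr9:7272394-7272513 for Mmp13, chr9:7445702-7445821 for Mmp3, chr9:7464021-7464140 for Mmp1a, chr9:7502222-7502341 for Mmp10, chr9:7347254-7347373 for the Mmp12 start of the table, chr9:7558309-7558428 for Mmp8 and chr16:85803114-85803233, minus strand, for Adamts1.
Mmp13: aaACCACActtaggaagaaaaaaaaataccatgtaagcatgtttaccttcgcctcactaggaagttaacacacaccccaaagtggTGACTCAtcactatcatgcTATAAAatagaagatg
Mmp3: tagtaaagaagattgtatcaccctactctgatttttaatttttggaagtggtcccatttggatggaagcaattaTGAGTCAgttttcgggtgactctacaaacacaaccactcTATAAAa
Mmp1a: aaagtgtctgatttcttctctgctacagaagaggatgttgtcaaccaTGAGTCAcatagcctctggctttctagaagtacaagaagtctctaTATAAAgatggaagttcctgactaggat
Mmp10: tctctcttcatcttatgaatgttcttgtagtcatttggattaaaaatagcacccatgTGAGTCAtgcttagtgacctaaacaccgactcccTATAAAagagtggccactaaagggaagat
Mmp12: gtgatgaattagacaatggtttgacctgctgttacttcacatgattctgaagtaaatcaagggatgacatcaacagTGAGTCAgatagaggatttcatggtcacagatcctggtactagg
Mmp8: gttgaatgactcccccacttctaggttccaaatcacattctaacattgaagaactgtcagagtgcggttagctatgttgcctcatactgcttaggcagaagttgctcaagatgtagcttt
Adamts1: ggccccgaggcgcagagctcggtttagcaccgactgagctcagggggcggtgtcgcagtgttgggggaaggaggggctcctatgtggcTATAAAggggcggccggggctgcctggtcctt

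Among the 32 members with a RefSeq promoter entry, 7 held an AP-1 element in the 250 bases before a start. All 7 belong to the chromosome 9 row (Mmp1a, Mmp1b, Mmp3, Mmp7, Mmp10, Mmp12 and Mmp13), including the 3 that rose; Mmp8, Mmp20 and Mmp27 of the row did not hold it, nor did the other RefSeq start of Mmp12 and of Mmp7. Counted by window, 7 of the 35 member windows held it, beside 4.46% of all RefSeq windows of the same length and 3.56% of those of tested genes. The 7 genes are neighbours in the same row and Mmp1a and Mmp1b are close copies, so they are not 7 separate cases. The element was looked for because it is known from collagenase and stromelysin promoters, so its share here is not a test. The letters TATAAA, at any position, were found in 9 of the 35 member windows, in 7.59% of all windows and in 4.13% of those of tested genes. They began 7 bases before the start in Mmp3 and 70 in Mmp21, so a match need not be a working TATA box. The RUNX element was found in 6 member windows, in 14.05% of all windows and in 11.13% of those of tested genes. None of these 32 members held the related cyclic AMP response element (TGACGTCA, 1.55% of all windows and 2.46% of those of tested genes). The other members, among them Adamts15, Mmp17, Mmp2 and Mmp9, had no entry and were not searched. In these same libraries the Fos and Jun genes were lower in cKO: Fos, Fosb, Jun, Junb and Jund of 7 passed, with Fos at 1474, 1281 and 1448 CPM in WT and 917, 848 and 729 in cKO (log2 -0.75 ± 0.10 SE, edgeR adjusted p = 0.00261). Fosl1 and Fosl2 did not pass. Of the 7 Mmp genes with the element 3 rose, Mmp10 and Mmp12 did not pass, and Mmp1b and Mmp7 were not tested. Whether the Fos and Jun values bear on these genes was not tested.

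**Figure D4:**
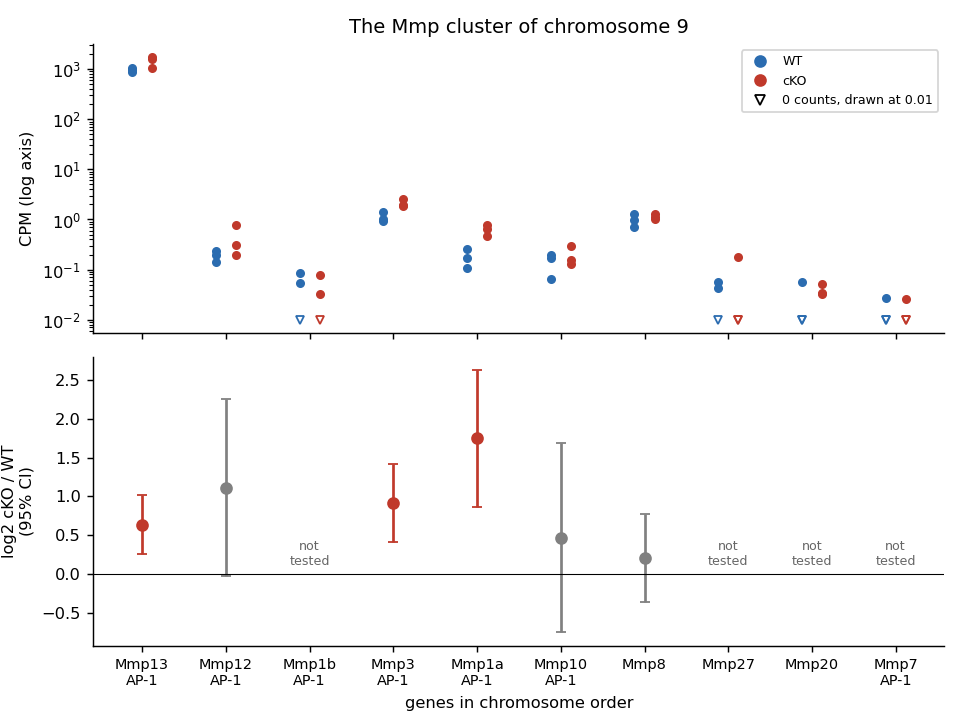
The 10 Mmp genes of chromosome 9 in chromosome order. Top, CPM in each library (log axis; open triangles, 0 counts, drawn at 0.01); bottom, log2 fold change with its 95% confidence interval, red where past the threshold. AP-1 under a name marks a gene with TGAGTCA or TGACTCA in the 250 bases before a start; all 6 tested genes are fitted above 0, from 0.21 to 1.75.

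Of the remaining secreted MMPs, none passed the edgeR test, and 2 were at an unadjusted p under 0.05 (Mmp28 and Mmp19). Mmp28, epilysin, was at 11.5, 8.96 and 11.5 CPM in WT and at 15.1, 14.99 and 11.9 in cKO, without overlap by a small margin (log2 0.39 ± 0.13 SE, edgeR adjusted p = 0.0687). It passed by DESeq2 (adjusted p = 0.0351), without cKO 37 (edgeR adjusted p = 0.0243) and under the GC and length offset (0.0451). Mmp19, which acts on basement membrane proteins, was at 0.32 ± 0.11 and the furin-activated Mmp11 at -0.13 ± 0.07 (edgeR adjusted p = 0.0781 and 0.258).

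The gelatinases did not pass. Mmp9 (chromosome 2, 164948251 to 164955846), the gelatinase of osteoclasts and of neutrophils, stood at 1314, 1696 and 1064 CPM in WT and at 829.8, 1227 and 760.4 in cKO. The cKO 10 library lay inside the WT range (log2 -0.53 ± 0.24 SE, 95% confidence interval -1.11 to 0.04, edgeR adjusted p = 0.201), and without it Mmp9 passed (-0.78, edgeR adjusted p = 0.0461). Of 10 osteoclast markers, 2 fell and 8 did not pass, beside 6.45% of all genes lower, and all 10 had fitted values below 0. Those that fell were Nfatc1, the master factor of osteoclast formation (-0.48 ± 0.08), and Acp5, tartrate-resistant acid phosphatase (-0.56 ± 0.12, edgeR adjusted p = 0.00705 and 0.0172). The number that passed ranged from 1 to 4 as single libraries were left out: 1 without cKO 8 or cKO 37 and 4 without WT 29. Their summed level was 2199 to 2906 CPM in WT and 1810 to 2078 in cKO, and none was at 0 in any library. Most of that sum was Ctsk, with a mean of 1446 CPM in WT and 1215 in cKO. Ctsk did not pass (log2 -0.25 ± 0.11 SE, edgeR adjusted p = 0.162). Mmp9 per summed osteoclast marker was 0.541 ± 0.0516 in WT and 0.475 ± 0.108 in cKO (SD, n = 3 per group), overlapping, and the part of osteoclasts in the Mmp9 values was not tested. Mmp2 (0.11 ± 0.10, edgeR adjusted p = 0.526) did not pass. The ratio of Mmp13 to Mmp9 RPKM was 0.918, 0.65 and 0.944 in WT and 1.52, 1.66 and 2.44 in cKO. That ratio was chosen after its values were seen and was not tested.

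**Figure D5:**
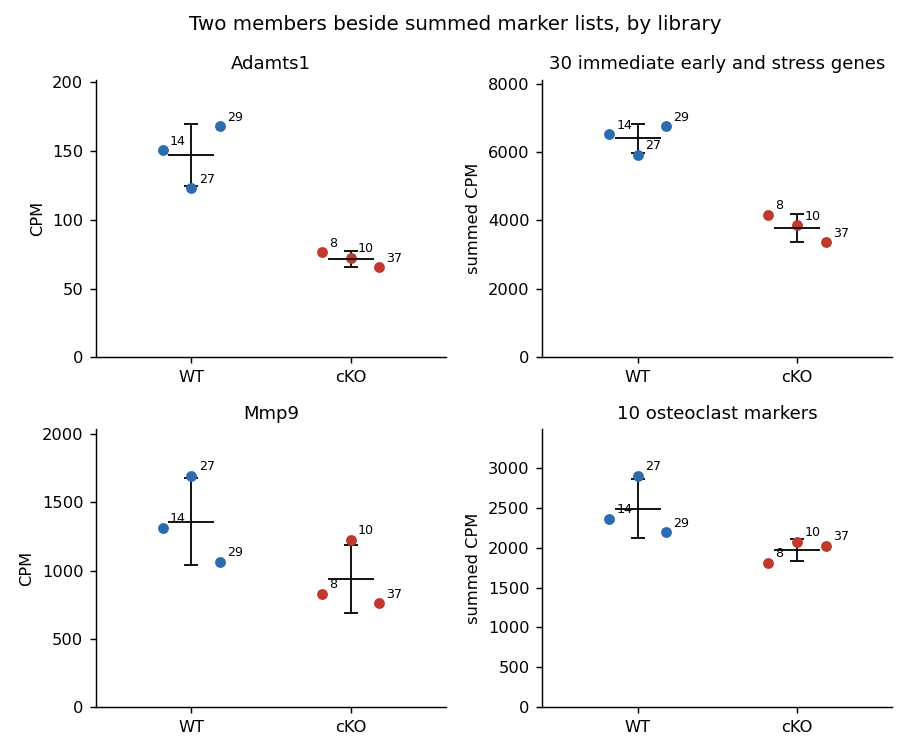
CPM of Adamts1 and Mmp9 (left) beside the summed CPM of the immediate early and the osteoclast lists (right) in each library (points, numbered by library) and the mean ± SD of the group (3 libraries each). Adamts1 and the summed immediate early genes show no overlap of WT and cKO; for Mmp9, cKO 10 at 1227 lies above WT 29 at 1064.

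Membrane-bound MMPs act at the cell surface, and Mmp14 among them activates Mmp2. Of 7 tested, 1 fell, beside 6.45% of all genes lower, and their median log2 fold change was -0.05. Mmp17 (chromosome 5, 129584214 to 129608211), a protease held by a lipid anchor, stood at 5.44, 4.84 and 5.65 CPM in WT and at 3.40, 3.97 and 3.43 in cKO. All cKO libraries lay below all WT libraries (log2 -0.56 ± 0.13 SE, 1.48-fold lower, edgeR adjusted p = 0.0204), a call lost without WT 14, WT 29 or cKO 8 (edgeR adjusted p = 0.0589 to 0.0863). Mmp14 itself was at 999.7, 1002 and 869.8 CPM in WT and 924, 1019 and 831 in cKO, with a log2 fold change of -0.05 (95% confidence interval -0.27 to 0.17). Mmp23 stood at 97.9, 80.0 and 89.5 CPM in WT and at 97.3, 88.9 and 78.9 in cKO, which overlap. On the log2 scale Mmp23 was at -0.01 ± 0.09, Mmp16 at -0.14 ± 0.08 and Mmp15 at -0.32 ± 0.10 (edgeR adjusted p = 0.945, 0.293 and 0.0593). Mmp15 passed by DESeq2 (adjusted p = 0.0275), and by edgeR with no filter on low counts (0.0429), under the length offset (0.0367), and without WT 14 (0.0284) or cKO 10 (0.0394). Mmp16 passed under the GC and length offset (-0.25, edgeR adjusted p = 0.0375). The leukocyte protease Mmp25 was at 0.56 ± 0.22 (edgeR adjusted p = 0.122, and 0.0342 without cKO 37), and Mmp24 had at most 16 counts in a library.

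Among the ADAMTS proteases that cut aggrecan, versican and related proteoglycans, 2 of 7 fell, beside 6.45% of all genes lower. The median log2 fold change of the 7 was -0.03. Adamts1 (chromosome 16, 85793828 to 85803115, minus strand) stood at 150.5, 123 and 168 CPM in WT and at 76.4, 72.5 and 65.4 in cKO. The cKO libraries lay close together, and the highest was well below the lowest WT library. The means were 147 ± 22.7 and 71.5 ± 5.57 CPM (SD, n = 3 per group), 2.06-fold lower in cKO (log2 -1.04 ± 0.11 SE, 95% confidence interval -1.30 to -0.79, edgeR adjusted p = 0.00202). It ranked 17 by size among the 1038 genes that were lower. Adamts1 passed in all 17 alternatives run, with log2 values between -1.16 and -0.94 and adjusted p of at most 0.0135, the highest when tested against a fold of 1.2 (glmTreat), where no other member passed.

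Adamts1 is known as a gene that responds quickly to inflammatory and mechanical stimuli. Of 30 immediate early and stress response genes, 24 fell, none rose and 6 did not pass (median -0.72), and their summed CPM was 5916 to 6759 in WT and 3354 to 4161 in cKO. The stress factor Atf3 fell by 1.49 ± 0.12 on the log2 scale (edgeR adjusted p = 0.000764). That list was written with earlier results of these data known, and the part of this response in the Adamts1 values was not tested. The nearest member, Adamts5 (85858157 to 85901125), lies 55 kb away on the same strand with 1 other gene of the table between. Adamts5, the main aggrecanase of mouse cartilage, was at 71.0, 70.1 and 76.9 CPM in WT and at 73.1, 69.9 and 87.4 in cKO (log2 0.08, 95% confidence interval -0.11 to 0.26).

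Adamts15 (chromosome 9, 30899155 to 30922452, minus strand), a versican-cutting protease, stood at 9.81, 11.02 and 11.5 CPM in WT and at 6.51, 5.42 and 8.69 in cKO. The groups did not overlap, with cKO 37 nearest to WT (log2 -0.65 ± 0.16 SE, 1.57-fold lower, edgeR adjusted p = 0.0274). Leaving out WT 27, WT 29, cKO 8 or cKO 10 ended the call (edgeR adjusted p = 0.0537 to 0.113), as did the GC and length offset (0.0546). Adamts8 begins 20.1 kb away on the other strand and was at -0.03 ± 0.17 (edgeR adjusted p = 0.929). Adamts4, the other classical aggrecanase, was at -0.22 ± 0.11, Adamts9 at 0.02 ± 0.06 and Adamts20 at 0.17 ± 0.17 (edgeR adjusted p = 0.197, 0.874 and 0.569). Among the proteoglycans these enzymes cut, Vcan, versican, was lower in cKO, with 419.9, 415 and 407 CPM in WT and 346, 316 and 288 in cKO (log2 -0.39 ± 0.08 SE, edgeR adjusted p = 0.0119). Acan, aggrecan, did not pass (-0.27 ± 0.63) and ranged from 162 to 764 CPM over the 6 libraries.

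The procollagen N-proteinases, which trim fibrillar procollagens, did not pass. Adamts2 was at 279, 244.6 and 267 CPM in WT and at 251, 226 and 224 in cKO, with cKO 8 above WT 27 (-0.17 ± 0.07, edgeR adjusted p = 0.142). Adamts3 was at -0.25 ± 0.09 (adjusted p = 0.0924) and passed with the length offset alone (0.0308) and with GC added to it (0.0424). Adamts14 was at 0.04 ± 0.09. Adamts7 and Adamts12, which cut cartilage oligomeric matrix protein, were at -0.16 ± 0.06 and 0.06 ± 0.07 (edgeR adjusted p = 0.128 and 0.633). The von Willebrand factor protease Adamts13 had at most 14 counts in a library. None of the other 6 ADAMTS genes passed (2 at an unadjusted p under 0.05, Adamts16 and Adamts17), though Adamts17 did without WT 14 (edgeR adjusted p = 0.0277). Adamts10 was at 183, 186 and 182 CPM in WT and at 194, 178 and 193 in cKO (log2 0.04, 95% confidence interval -0.10 to 0.17).

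The TIMPs varied little between the groups. Timp1 was at 185, 177 and 175 CPM in WT and at 156, 190.4 and 194 in cKO, with cKO libraries both below and above all WT ones (log2 0.01, 95% confidence interval -0.17 to 0.19). Timp2, which also helps Mmp14 to activate Mmp2, was at 1202, 1089 and 1002 CPM in WT and at 1183, 1283 and 979.6 in cKO in the same order (0.07, -0.18 to 0.31). Timp3, the matrix-bound inhibitor, was at 514, 519.5 and 439 CPM in WT and at 439, 523 and 471 in cKO (-0.04, -0.24 to 0.16). The intervals thus reach at most 0.31 from 0 for each. Timp1, Timp3 and Timp4 overlap synapsin genes on the other strand, and reads of such pairs cannot be told apart if strand was not used. Summed Timp RPKM over summed Mmp RPKM was 0.344 ± 0.0179 in WT and 0.335 ± 0.0137 in cKO (SD, n = 3 per group), a difference within the spread.

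Of 61 tested genes in 6 related lists, none rose and 3 fell (median -0.06), beside 5.96% and 6.45% of all genes. In the ADAM family of membrane proteases, 2 of 12 fell: Adam19 by 0.41 ± 0.09 and Adam15 by 0.21 ± 0.06 on the log2 scale (edgeR adjusted p = 0.0145 and 0.0382), while Adam12 (-0.23 ± 0.09) and Adam23 (-0.29 ± 0.13) did not pass. Adam19 was lost without WT 29 (edgeR adjusted p = 0.0549), and Adam15 without any library but cKO 10 (0.0507 to 0.149), under upper-quartile scaling (0.0592) and under the GC and length offset (0.0988). Versican was the 1 gene of 22 matrix substrates that passed, and Col1a1, the main bone collagen, was at -0.51 ± 0.20 (edgeR adjusted p = 0.115). None of the 5 tested plasminogen system genes passed (1 at an unadjusted p under 0.05), with the activator Plat at 0.34 ± 0.16 (edgeR adjusted p = 0.221). The 7 ADAMTS-like genes (1 at an unadjusted p under 0.05), the 5 procollagen C-proteinases and enhancers (0) and the 10 activators, inhibitors and clearance genes (3) held no call either by edgeR. Of these, Adamtsl4 was at -0.23 ± 0.08, Bmp1 at -0.11 ± 0.07, the proprotein convertase Furin, which activates several members, at -0.22 ± 0.09, and the hyaluronan receptor Cd44 at -0.26 ± 0.09 (edgeR adjusted p = 0.091, 0.357, 0.118 and 0.0811).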

How the data were processed

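Total RNA of 6 calvaria libraries was sequenced. Per the submitters' processing notes, the authors used bcl2fastq, TopHat2 2.0.6, HTSeq and mm10; for options, annotation and strand use the entry is "not given in the sources used here". Read counts per gene, all of them even, were deposited by the authors and tested unchanged. Why they are even is not given, so separate RNA fragments may be fewer than the counts, which matters most for low-count genes. With halved counts, 36 members were tested in place of 40, and the same 6 passed. The RPKM values deposited by the authors, per kilobase of the listed coding length, were used for levels between genes.

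Tests used edgeR 4.0.16 (R 4.3.3): filterByExpr (minimum count 10), TMM scaling and the robust quasi-likelihood F test of cKO against WT, Benjamini-Hochberg adjusted over 16089 genes, threshold 0.05. Library totals were 60449016 to 95439578. Alternatives were RLE and upper-quartile scaling, no filter, a mean CPM of at least 1, DESeq2 1.42.0, limma 3.58.1 voom, a threshold of 0.1, glmTreat at a fold of 1.2, halved counts, a gene length offset and each library left out; a GC and length offset (90.1% of genes with a GC value) was chosen after seeing the data. The steps were tested on simulated data.

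Members, roles and lists were chosen with earlier results of these data known. Values per library are given for members past the threshold, the TIMPs and the 10 most abundant members, and up to 4 genes of each related list are named; other names were chosen after their values were seen. Marker lists without a place in the text are muscle (14.7 to 17.8 summed CPM over all libraries), keratinocyte (3.68 to 5.90), neural (10.3 to 15.1), erythroid (7.13 to 12.9), macrophage (381 to 552), endothelial (654 to 826) and mural (997.5 to 1303); 1 macrophage, 1 endothelial and 1 neural marker were lower in cKO, and no marker of these lists was higher. 1 gene of the related lists is not reported here.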

Additional observations from a re-analysis of the deposited data

How the results depend on the processing

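No paired analysis was possible because the labels give no litter, batch or pairing of the libraries. The 1997 calls over all genes became 3277 at a threshold of 0.1, 112 by glmTreat and 586 (without cKO 8) to 1985 (without cKO 37) with a library left out; the share of higher calls was 48% (959 against 1038), 60.9% (1191 against 764) with upper-quartile scaling, 33.9% (810 against 1580) with the length offset and 36.0% (771 against 1368) with the GC and length offset. Members higher numbered 5 at a threshold of 0.1, 0 by glmTreat and 0 (without WT 14, WT 27 or cKO 10) to 4 (without cKO 37) with a library left out. Members lower numbered 5 at a threshold of 0.1, 1 by glmTreat, 5 with the length offset and 1 (without WT 29 or cKO 8) to 4 (without WT 14 or cKO 10). Related genes higher numbered 0 to 3, the latter without WT 14. Related genes lower numbered 5 by DESeq2, at a threshold of 0.1 and with the length offset, 0 by glmTreat and 1 to 5 with a library left out. The cause was not tested. The counts of members called rest on single libraries, and only Adamts1 passed under every alternative run. Mmp1a was below the mean CPM filter and had no adjusted p by DESeq2.

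Sign changes touched values near 0, none of them past the threshold. By voom Timp1 was at -0.00012. With the length offset Timp1 was at -0.014, Adamts10 was at -0.00057, Adamts9 was at -0.026 and Adamts14 was at -0.0018. With upper-quartile scaling Mmp23 was at 0.016. With the GC and length offset Mmp23 was at 0.055, Adamts9 was at -0.014, Adamts8 was at 0.026, Adamts12 was at -0.011 and Adamts5 was at -0.026. With a library left out, the ranges were Timp3 from -0.12 to 0.016, Timp2 from -0.029 to 0.16, Timp1 from -0.053 to 0.10, Mmp14 from -0.13 to 0.018, Mmp23 from -0.089 to 0.060, Adamts13 from -0.48 to 0.12, Adamts9 from -0.032 to 0.074, Adamts18 from -0.26 to 0.027, Adamts8 from -0.15 to 0.16, Adamts14 from -0.039 to 0.14 and Adamts5 from -0.028 to 0.14.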
